A study of Mus musculus with 48 samples.

Results

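The genes described here encode synaptic vesicle proteins, SNARE proteins and their direct regulators: synaptotagmins, synapsins, syntaxins, VAMPs, SNAP-25 relatives, SV2 proteins, synaptophysin, synaptogyrins, complexins, Stxbp proteins, Rims proteins and Snap91. Members were taken by gene symbol among protein-coding genes of the GENCODE M21 annotation, and 68 of the 48709 genes in the files matched. Polyadenylated RNA was sequenced from brain tissue of male C57BL/6J mice in 46 libraries, and reads were counted per gene. Formin 2 knockout mice (Fmn2-/-), which constitutively lack an actin nucleator, were compared with Fmn2+/+ mice in the dentate gyrus at 3 months (5 libraries each) and at 8 months (5 Fmn2-/- and 3 Fmn2+/+ libraries). A cross of these mice with an amyloid line was sampled at 3 months, with 7 libraries carrying the genotype label FMN2-/-_APP and 9 the label FMN2 +/+ APP, so both of its groups carry APP by label. Amyloid mice labelled APP and wild-type mice, both 4 months old by label, gave 6 libraries each. In the amyloid line the transgenes are driven by the neuronal Thy1 promoter, so amyloid arises from transgene overexpression and not from the mouse App gene.

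The labels were checked before use. Fmn2 fell in the knockout by 2.06 on the log2 scale at 3 months (SE 0.0742, edgeR adjusted p = 2.41e-08) and by 1.89 at 8 months (SE 0.111, edgeR adjusted p = 3.91e-06). In the cross the direction was the opposite of the labels, with Fmn2 higher by 2.15 on the log2 scale in the libraries labelled FMN2-/-_APP (SE 0.0572, edgeR adjusted p = 2.83e-14). These groups are therefore named by their labels throughout, and no direction for Fmn2 loss is drawn from them. All 4-month libraries are labelled dentate gyrus while their titles name the prefrontal cortex. The summed level of 6 dentate granule cell markers was 169 to 247 CPM (read counts scaled to a common library size) in these libraries and 759 to 1470 in all others, whereas 8 cortical excitatory neuron markers summed to 657 to 753 against 125 to 364. They are called cortex-titled below. Totals ran from 6818809 to 43921030 counted reads per library. The 8-month groups had the lowest medians, 8381078 (Fmn2+/+) and 9943023 (Fmn2-/-). Both ends of the range lay in the Fmn2+/+ group at 8 months. Its replicate 1 held 43921030 reads on lane 6, and replicates 2 and 3 held 6818809 and 8381078 on lane 7.

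At a presynaptic terminal, vesicles filled with transmitter are clustered by synapsins and tethered at the active zone by Rims proteins. Fusion follows when a vesicle SNARE (a VAMP) zippers with the plasma membrane SNAREs, a syntaxin and SNAP-25, under the control of complexins and other regulators, and calcium bound to a synaptotagmin triggers it. The best known such terminals of dentate granule cells are the large mossy fibre boutons in the CA3 region, by which granule cells contact CA3 pyramidal neurons. RNA of granule cells, interneurons and glia is mixed in whole tissue, and fewer cells of a type cannot be told apart from less RNA per cell.

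The regions upstream of 4 members are shown because these genes differed between the cortex-titled and dentate gyrus libraries in both pairs of groups described below: Stx1a and Rims3 were higher and Stxbp6 and Syt10 lower. The sequences are from RefSeq on GRCm38.p6 and cover the 250 bases before the annotated start, at chr5:135023232-135023481 (plus strand) for Stx1a, chr4:120854549-120854798 (plus strand) for Rims3, chr12:45074484-45074733 (minus strand) for Stxbp6 and chr15:89841861-89842110 (minus strand) for Syt10. By GENCODE M21 Stxbp6 spans chr12:44852484-45074709, so most of its window lies inside the gene by that annotation. Capitals mark the GC box GGGCGG or its reverse complement CCGCCC.
Stx1a: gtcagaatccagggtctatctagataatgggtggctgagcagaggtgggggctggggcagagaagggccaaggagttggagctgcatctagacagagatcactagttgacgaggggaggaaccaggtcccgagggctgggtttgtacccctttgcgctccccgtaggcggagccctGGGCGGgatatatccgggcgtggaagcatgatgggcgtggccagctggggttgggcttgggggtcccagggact
Rims3: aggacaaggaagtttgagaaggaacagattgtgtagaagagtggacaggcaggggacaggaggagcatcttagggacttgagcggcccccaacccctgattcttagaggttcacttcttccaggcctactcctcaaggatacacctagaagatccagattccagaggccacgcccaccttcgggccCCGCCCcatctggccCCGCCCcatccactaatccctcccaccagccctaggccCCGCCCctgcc
Stxbp6: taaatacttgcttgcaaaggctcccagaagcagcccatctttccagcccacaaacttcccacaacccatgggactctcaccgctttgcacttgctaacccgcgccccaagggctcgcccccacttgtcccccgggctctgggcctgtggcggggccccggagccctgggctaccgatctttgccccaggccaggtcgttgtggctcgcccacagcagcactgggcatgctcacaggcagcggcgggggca
Syt10: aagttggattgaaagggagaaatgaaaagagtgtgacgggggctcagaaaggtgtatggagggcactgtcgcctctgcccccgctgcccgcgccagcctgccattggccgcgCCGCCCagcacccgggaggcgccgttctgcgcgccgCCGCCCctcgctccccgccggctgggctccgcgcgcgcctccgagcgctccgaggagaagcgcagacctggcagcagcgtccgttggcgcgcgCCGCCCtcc
The GC box occurred 1 time in the window of Stx1a, 3 times in that of Rims3, 3 times in that of Syt10 and at no position in that of Stxbp6. It was thus found on both sides of the difference. Neither the Ets motif CCGGAA nor the cAMP response element TGACGTCA, searched on both strands, occurred in the 4 windows. Of 66 windows of 51 members in the RefSeq table, 59.1% held the GC box, 12.1% CCGGAA and 3.03% TGACGTCA, beside 32.7%, 12% and 1.55% of all 32851 windows of that length. In the 4 windows no match of 1 motif overlapped another, since only the GC box was found.

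The members ran from 0 to 675 RPKM in Fmn2+/+ dentate gyrus at 3 months, and a few proteins of the core fusion machinery dominated. RPKM are CPM per kilobase of exon, counted over all annotated transcripts of a gene. Comparisons between genes by RPKM therefore depend on the annotation. Snap25, the plasma membrane SNARE of fast release, had the highest level at 675 ± 79.3 (SD, n = 5). Cplx2, a complexin that binds the assembled SNARE complex, followed at 475 ± 13.3, and the vesicle SNARE Vamp2 at 305 ± 21.2. Cplx1 at 288 ± 31.1 lay within the spread of Vamp2, and the calcium sensor Syt1 at 262 ± 24.7 within that of Cplx1. Together these 5 genes made up 47.3% to 48.8% of the summed RPKM of all members in the 5 libraries.

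**Figure D1:**
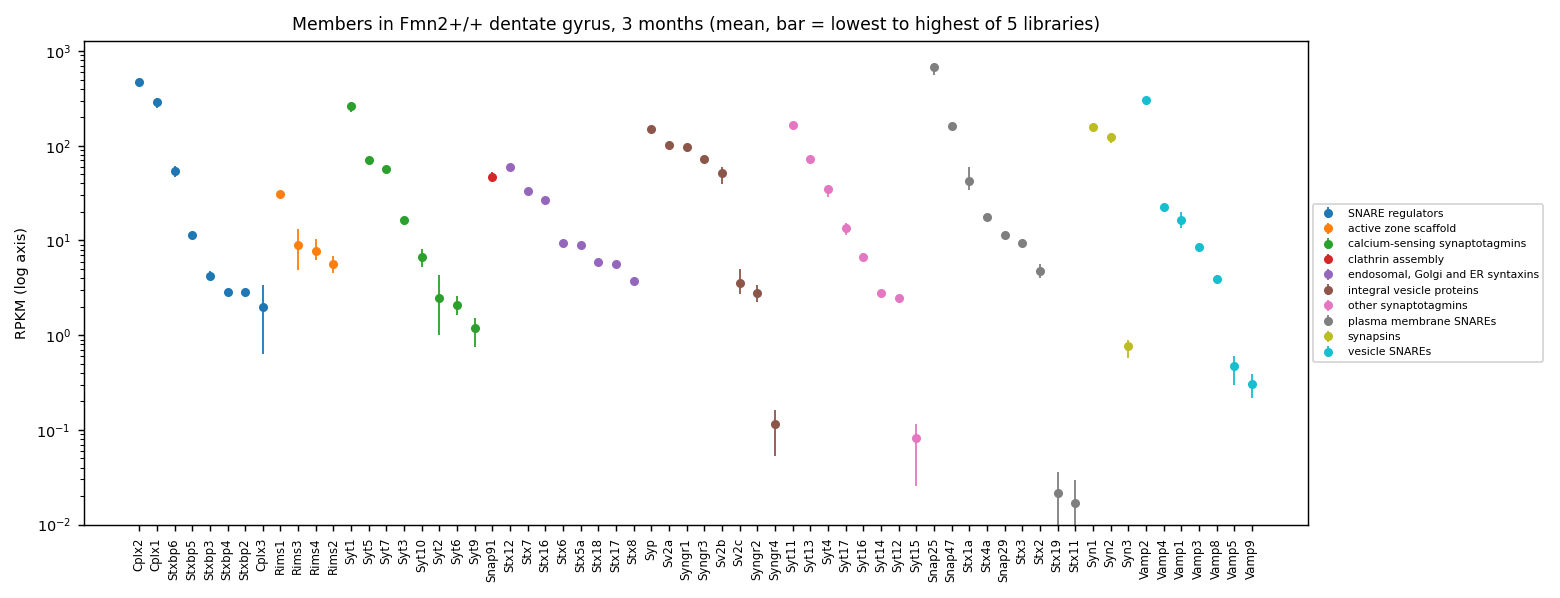
Level of the members in Fmn2+/+ dentate gyrus at 3 months, as RPKM on a log axis, with the members grouped and coloured by role; points are means and bars run from the lowest to the highest of 5 libraries. Snap25 stands highest at 675 RPKM, and Cplx4 and Syt8, at 0 in these libraries, and members not reported here are not drawn.

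A second tier held Syt11, a synaptotagmin that does not bind calcium (167 ± 9.04 RPKM), the SNAP-25 relative Snap47 (164 ± 8.65), the vesicle-clustering synapsin Syn1 (160 ± 13.5) and the vesicle membrane protein Syp (152 ± 7.58). Neighbours in this order differed by less than their SDs. The leading members of the remaining roles were lower, with the endosomal syntaxin Stx12 at 60.2 ± 1.28, the clathrin assembly protein Snap91 at 47.1 ± 4.11 and the active zone scaffold Rims1 at 30.7 ± 2.16. At the other end, Cplx4, Stx11, Stx19, Syngr4 and Syt8 passed the low-count filter in no comparison. Cplx4 had 0 reads in 31 of 46 libraries and at most 6, and Syt8 0 reads in 33 of 46 and at most 3.

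At 3 months no member passed the threshold of the test between Fmn2-/- and Fmn2+/+. All Fmn2+/+ libraries were on lane 5, as was Fmn2-/- replicate 1, and the other Fmn2-/- libraries were on lane 6. Lane and genotype can thus barely be told apart here, and the interaction below uses the same libraries. Of 63 members tested, 0 were called at an edgeR adjusted p under 0.05 and a log2 fold change of at least 0.25, beside 0.0301% of all 16630 genes tested; DESeq2 also called 0. At an unadjusted p under 0.05 there were 6 members, beside 10.5% of all genes. The median log2 fold change of the members was -0.025, against 0.0041 for all genes. Non-overlapping groups were found for 1 member, which was higher in the knockout, beside 1.94% of all genes in that direction.

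The smallest p belonged to Syn3, a synapsin of low level in the adult brain. Its CPM was 10.1, 9.19, 9.6, 11 and 7.1 in the Fmn2+/+ libraries and 6.66, 7.58, 7.29, 8.44 and 6.88 in the Fmn2-/- libraries. The groups overlapped, and the log2 fold change was -0.35 (SE 0.116, edgeR adjusted p = 0.328). Vamp5, a VAMP known from muscle, had 1.64, 0.811, 1.03, 1.24 and 1.65 CPM in Fmn2+/+ and 1.88, 2.8, 2.24, 1.37 and 2.08 in Fmn2-/- (log2 fold change 0.69, SE 0.238, edgeR adjusted p = 0.353). Syt14, a synaptotagmin that does not bind calcium, gave a log2 fold change of -0.15 (SE 0.0617, edgeR adjusted p = 0.424).

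At 8 months 1 of 61 members tested was called, Syt5, a calcium-binding synaptotagmin, beside 1.13% of all 14665 genes. DESeq2 called 4 members, 2 higher and 2 lower, among 672 called genes. The number of genes it tested is not given here. Syt5 lies at chr7:4539765-4547541 of GRCm38. Syt5 had 180, 137 and 187 CPM in the Fmn2+/+ libraries and 122, 119, 120, 121 and 125 in the Fmn2-/- libraries. Every knockout library was below every Fmn2+/+ library, and Syt5 fell by 0.46 on the log2 scale (SE 0.0904, edgeR adjusted p = 0.0434). The call was lost in 7 of 8 fits that left out 1 library, when Fmn2+/+ replicate 1 (adjusted p = 0.325) or 3 (0.0559), or Fmn2-/- replicate 1 (0.0762), 2 (0.128), 3 (0.116), 4 (0.105) or 5 (0.0928) was left out, and with a correction for length and GC content (adjusted p = 0.0745). Without Fmn2+/+ replicate 2, the library with the fewest reads, the same test called 16 of 61 members (26.2%), beside 20.6% of all 15021 genes. Fmn2-/- replicates 2 and 3 had a chi-square per degree of freedom of 1.62, against 3.5 to 6.4 for the other pairs of their group. Repeat runs of 1 library gave 1.72 and 2.15. This value grows with read depth. The repeated libraries held 39403392 and 41603296 reads over both runs, against 9175551 and 9943023 for replicates 2 and 3. The value of 1.62 and those of the repeat runs therefore cannot be ranked. With replicates 2 and 3 summed to 1 library, Syt5 was not called (edgeR adjusted p = 0.108).

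Of the glial markers at this age, the astrocyte sum separated the genotypes, the microglia sums met at 201 CPM and the oligodendrocyte sums overlapped. The summed level of 4 astrocyte markers was 1340 to 1500 CPM in Fmn2+/+ and 1600 to 1850 in Fmn2-/-, without overlap, with 1 of the 4, the water channel Aqp4, called higher and none at 0. The 4 microglia markers summed to 180 to 201 CPM against 201 to 225, and the 5 oligodendrocyte markers to 2460 to 3130 against 1800 to 2590, with none called. Of the 6 granule cell markers 1 was called, C1ql2, which was lower, while their sum was 896 to 977 CPM in Fmn2+/+ and 908 to 1060 in Fmn2-/-. Choroid plexus markers summed to 607 and 579 CPM in Fmn2-/- replicates 2 and 3. They summed to 29.3 to 97.2 CPM in the other Fmn2-/- libraries and to 73.5 to 222 in Fmn2+/+. The part of all these markers in the Syt5 difference was not tested.

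Below the call, 9 members had an unadjusted p under 0.05 at 8 months, beside 23.3% of all genes. The groups did not overlap for 4 members that were higher in the knockout and 7 that were lower, beside 5.11% and 6.57% of all genes. The median log2 fold change of the members was 0.064 and that of all genes 0.0060. By role, the 4 Rims genes had a median of 0.29 and the 10 SNARE regulators, of which 9 were tested, a median of 0.051, with no member of either called. The fold changes of the members went with the composition of the transcript: over 63 members at 3 months Spearman's rho with GC content was 0.279 and with exon length -0.289, and over 61 members at 8 months it was -0.407 and 0.457. The points share their libraries, and these values are a description.

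**Figure D2:**
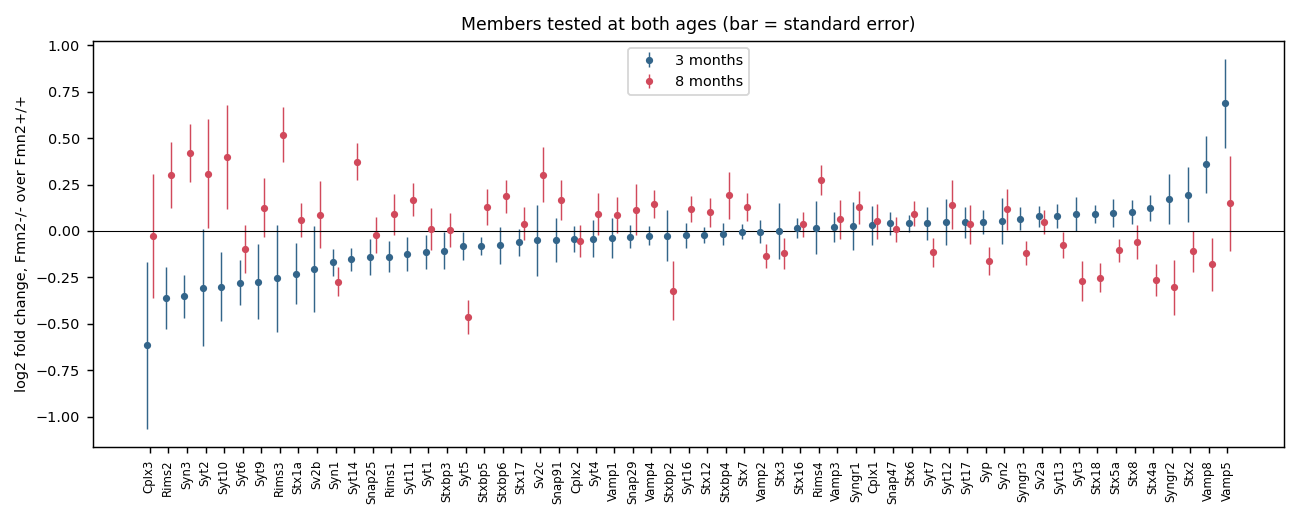
Log2 fold change of Fmn2-/- over Fmn2+/+ for the members reported here that were tested at both ages, ordered by the value at 3 months; points are estimates and bars standard errors. Syt5 is the member called, at 8 months, with a log2 fold change of -0.46.

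Whether the effect of genotype differed with age was tested as an interaction in a fit of all 4 Fmn2 groups. It was called for 3 of 63 members, beside 3.73% of all 17046 genes, with 2 members higher (0.733% of all genes) and 1 lower (2.99%). DESeq2 called 5 members, and its share of all genes is not given here. C1ql2 was called lower among the granule cell markers and no astrocyte marker was called. Syn3 differed by 0.76 between ages (SE 0.191, edgeR adjusted p = 0.0357), and its call was lost in 10 of 18 fits that left out 1 library, at an adjusted p of up to 0.115. At 8 months its CPM was 6.03, 5.76 and 4.26 in Fmn2+/+ and 6.63, 6.65, 8.31, 7.59 and 7.02 in Fmn2-/-, so the knockout libraries were above all Fmn2+/+ libraries there and overlapped them, with a lower mean, at 3 months. Syt14 differed by 0.51 (SE 0.112, edgeR adjusted p = 0.0209), with 25.7, 32.1 and 23.5 CPM in Fmn2+/+ and 34.3, 34.8, 32.1, 36.7 and 34.5 in Fmn2-/- at 8 months. Syt14 lies on chromosome 1 at 192891233 to 193035775 of GRCm38, 18068504 bases from Fmn2. Stx18, a syntaxin of the endoplasmic reticulum, differed by -0.36 (SE 0.0803, edgeR adjusted p = 0.0225), with 30.3, 26.8 and 29.2 CPM in Fmn2+/+ and 24.7, 24.9, 22.6, 24.5 and 24.2 in Fmn2-/- at 8 months. The count was 0 with the length and GC correction, with lane as a covariate, and without Fmn2+/+ 8-month replicate 1 or 3. The calls of Syt14 and Stx18 were lost in 2 and 3 of the 18 fits. The count was 9 of 63 (14.3%) without Fmn2+/+ 8-month replicate 2, beside 15.9% of all 17545 genes. It was 5 without Fmn2-/- 3-month replicate 4, in which choroid plexus markers summed to 4120 CPM, and 1 without Fmn2-/- 8-month replicate 3. The shares of all genes in these last fits are not given here.

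In the cross, 0 of 62 members were called between libraries labelled FMN2-/-_APP and FMN2 +/+ APP at an adjusted p under 0.05 and a log2 fold change of at least 0.5, beside 0.774% of all 16656 genes; DESeq2 also called 0. At an unadjusted p under 0.05 there were 8 members, beside 16.6% of all genes. Stx17, a syntaxin of autophagosomes, was lowest in p: the lowest, median and highest CPM were 21.1, 23.6 and 26.5 under the label FMN2-/-_APP and 26.6, 28 and 36.7 under FMN2 +/+ APP. On the scale of this pair alone the groups overlapped (27.5 against 27.3). Its log2 fold change of -0.31 (SE 0.074, edgeR adjusted p = 0.0405) passed the p but was smaller than the fold required. Vamp8, an endosomal VAMP, had a log2 fold change of -0.44 (SE 0.152, edgeR adjusted p = 0.148), and Syt15 of -0.72 (SE 0.276, edgeR adjusted p = 0.196) at a level under 1.3 CPM. Libraries of the cross stood apart in single members. The library labelled FMN2-/-_APP replicate 7 had 275 CPM of Rims3, against 39.0 to 56.7 in the other 6 of its label, and no member was called without it.

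Amyloid mice and wild-type mice of the cortex-titled libraries differed in 2 of 62 members tested, both higher in APP, beside 2.34% of all 16733 genes and 2.19% for higher genes alone. The lowest, median and highest CPM of Vamp8 were 4.28, 5.13 and 5.53 in wild type and 6.55, 7.15 and 8.88 in APP. Syngr2, a synaptogyrin found outside neurons as well, had 4.29, 6.1 and 6.74 in wild type and 7.32, 8.98 and 10.2 in APP. Vamp8 lies at chr6:72385223-72390703 and Syngr2 at chr11:117809668-117814283 of GRCm38. Neither gene overlapped between groups, beside 2.5% of all genes higher without overlap. The groups also did not overlap for 4 members that were lower in APP, with 0 members called lower. The share of all genes in that direction is not given here. Vamp8 rose by a log2 fold change of 0.54 (SE 0.097, edgeR adjusted p = 0.00201) and Syngr2 by 0.64 (SE 0.118, edgeR adjusted p = 0.00232). With the length and GC correction Vamp8 had a log2 fold change of 0.49, just under the 0.5 required. Neither gene is specific to terminals, and both were low beside Snap25, for which the log2 fold change was -0.15 (SE 0.0433, edgeR adjusted p = 0.0588).

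The summed level of 4 microglia markers moved with them, at 198 to 217 CPM in wild type and 281 to 361 in APP, with 3 of the 4 markers called higher and none at 0. The 4 astrocyte markers summed to 725 to 846 CPM in wild type and 930 to 1110 in APP, with Gfap called higher, and the 5 oligodendrocyte markers to 2060 to 5880 against 1260 to 1930. The part of these markers in the rise of Vamp8 and Syngr2 was not tested. All APP libraries were sequenced on lane 7 and all wild-type libraries on lane 5, so lane and genotype cannot be told apart. The median log2 fold change of the members was -0.025, against -0.00041 for all genes, and 17 members had an unadjusted p under 0.05, beside 14.3% of all genes.

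**Figure D3:**
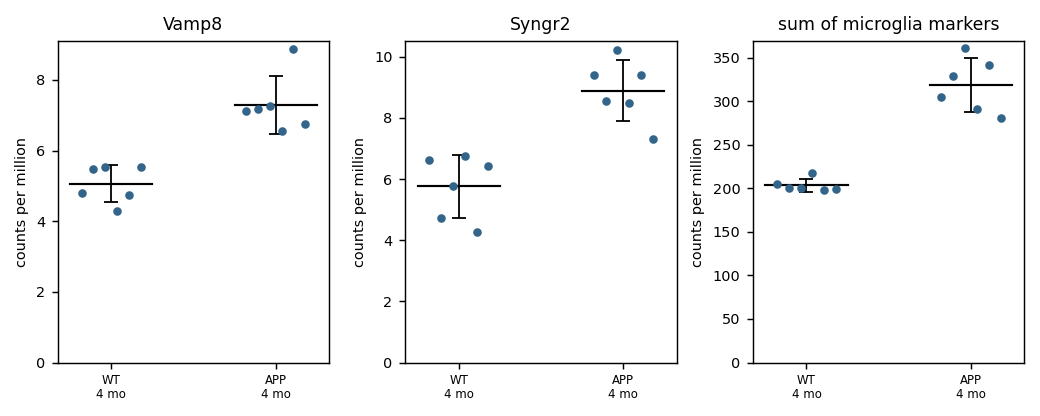
CPM of Vamp8, Syngr2 and the sum of 4 microglia markers in each cortex-titled wild-type (WT) and APP library; points are libraries, long lines means and error bars SDs (n = 6 per group). In each panel every APP library lies above every wild-type library.

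Of the 7 comparisons, the largest differences among these genes lay between the cortex-titled and the dentate gyrus libraries. They were measured in a wild-type pair (WT at 4 months over Fmn2+/+ at 3 months) and in an amyloid pair (APP at 4 months over the cross labelled FMN2 +/+ APP) that shares no library with it. In both pairs tissue, experiment and age cannot be told apart, and in the amyloid pair Fmn2 itself was higher in the cortex-titled libraries by 2.33 on the log2 scale (SE 0.0521, edgeR adjusted p = 6.17e-16). At a log2 fold change of at least 1, 12 of 62 members were called in the wild-type pair, 10 higher and 2 lower, which is 19.4% beside 20.2% of all 16661 genes (12.1% higher and 8.1% lower). In the amyloid pair 17 of 62 were called, 12 higher and 5 lower, which is 27.4% beside 20.4% of all 17167 genes (11.6% higher and 8.8% lower). At an unadjusted p under 0.05 there were 49 and 53 members, beside 76.4% and 74.7% of all genes. The 9 members called in both pairs had the same direction in each, 7 higher and 2 lower, and were 75.0% of the calls in the wild-type pair and 52.9% of those in the amyloid pair. The share of all genes called in both pairs was not counted. Whether this overlap is particular to these genes was therefore not tested.

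Among the plasma membrane SNAREs, Stx1a, the syntaxin of the release machinery, separated the tissues widely. It had 119, 96.3, 159, 92.1 and 97.3 CPM in Fmn2+/+ dentate gyrus and, as lowest, median and highest, 389, 476 and 491 in cortex-titled wild type. The amyloid pair gave 62.4, 79.6 and 88.4 against 396, 431 and 474. Stx1a was higher by 1.98 on the log2 scale in the wild-type pair (SE 0.125, edgeR adjusted p = 2.52e-09) and by 2.46 in the amyloid pair (SE 0.079, edgeR adjusted p = 3.97e-14), with no overlap in either. It was the only called gene of the 8 plasma membrane SNAREs tested in each pair. Snap25 differed in sign between the pairs, at -0.34 (SE 0.0701) and 0.50 (SE 0.0607).

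Of the 4 active zone scaffolds, 2 were called higher in the wild-type pair and all 4 in the amyloid pair. Rims3 and Rims4, short Rims forms that lack most of the domains of Rims1, were called in both pairs. Rims3 had 92.4, 75.7, 105.6, 38.8 and 42.8 CPM in Fmn2+/+ dentate gyrus, where replicates 1 to 3 stood above the others, and 273, 292 and 305 in cortex-titled wild type. Its log2 fold change was 1.98 in the wild-type pair (SE 0.213, edgeR adjusted p = 7.94e-07) and 2.38 in the amyloid pair (SE 0.0718, edgeR adjusted p = 1.83e-14). Rims4 was higher by 1.70 (SE 0.113, edgeR adjusted p = 4.27e-09) and 1.43 (SE 0.0709, edgeR adjusted p = 9.44e-12). Rims1 and Rims2 were called in the amyloid pair, at 1.14 (SE 0.0605) and 1.17 (SE 0.0664), and were at 0.34 in the wild-type pair. The median of the 4 genes was 1.02 in the wild-type pair and 1.30 in the amyloid pair, against -0.0094 and -0.026 for all genes.

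The SNARE regulators split. Stxbp2, a syntaxin-binding protein best known from granule release in blood and epithelial cells, had 11.8, 10.6, 11.6, 12.1 and 12.6 CPM in dentate gyrus and 54.6, 62.9 and 65.3 in cortex-titled wild type, a log2 fold change of 2.34 (SE 0.0638, edgeR adjusted p = 6.23e-13). It was 1.58 in the amyloid pair (SE 0.192, edgeR adjusted p = 8.98e-07). Cplx3, a complexin of ribbon synapses and some cortical neurons, was higher in both pairs. Stxbp6, which binds syntaxin in place of a VAMP, went the other way, with 249, 320, 303, 282 and 284 CPM in dentate gyrus and 101.3, 114 and 121 in cortex-titled wild type. It fell by 1.41 (SE 0.0612, edgeR adjusted p = 5.81e-11) and by 1.59 (SE 0.123, edgeR adjusted p = 2.61e-09). Cplx2 was lower by call in the amyloid pair, at -1.02 (SE 0.0647, edgeR adjusted p = 2.19e-10), and at -0.83 in the wild-type pair. Its call lay near the fold required and was lost in 4 of 11 alternative fits, which ran from -1.227 to -0.9229.

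Syt10, a calcium sensor of peptide-containing vesicles, showed the lowest fold changes of all members. Its CPM was 13.4, 15.1, 14.5, 9.76 and 9.75 in dentate gyrus and 1.41, 1.9 and 2.62 in cortex-titled wild type, and it fell by 2.67 (SE 0.162, edgeR adjusted p = 1.63e-09) and by 2.07 in the amyloid pair (SE 0.175, edgeR adjusted p = 8.94e-09). Syt2, the fast calcium sensor of many inhibitory and brainstem terminals, was higher by 1.09 in the wild-type pair (SE 0.327, edgeR adjusted p = 0.00725) and by 1.91 in the amyloid pair (SE 0.146, edgeR adjusted p = 2.55e-09). In cortex-titled wild type its 2 highest values, 67.2 and 57.8 CPM, came from replicates 3 and 4, in which oligodendrocyte markers summed to 5880 and 3770 CPM; without both libraries the log2 fold change was 0.70, and its call was lost. Syt9, Syt12 and Syt15 were called in the wild-type pair alone, at 1.16, 1.15 and 1.71, and were at 0.39, 0.90 and 0.37 in the amyloid pair; the difference between the pairs was not tested.

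Among vesicle proteins, Sv2b, an SV2 form of excitatory terminals, was higher in the amyloid pair by 1.66 (SE 0.199, edgeR adjusted p = 7.84e-07), with 84.8, 255 and 347 CPM in the cross and 686, 788 and 855 in APP. It was at 0.75 in the wild-type pair. Sv2c was lower in the amyloid pair by call, at -1.002 (SE 0.242, edgeR adjusted p = 0.00122), but this call was lost in 8 of 11 alternative fits. It was at -0.79 without the library labelled FMN2 +/+ APP replicate 8, which had 95.5 CPM. That library also held the highest Stxbp6, 552 CPM, and the highest Syt10, 13.9 CPM, of its label, and both remained called without it, at -1.49 and -1.94. Vamp8 was lower in the amyloid pair by 1.19 on the log2 scale (edgeR adjusted p = 1.42e-07), with 12.8, 15 and 23.4 CPM in the cross against 6.55, 7.15 and 8.88 in APP. Its call was lost in 1 of 11 alternative fits, at -0.7549. Syn1 was called higher in the amyloid pair, at 1.18.

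**Figure D4:**
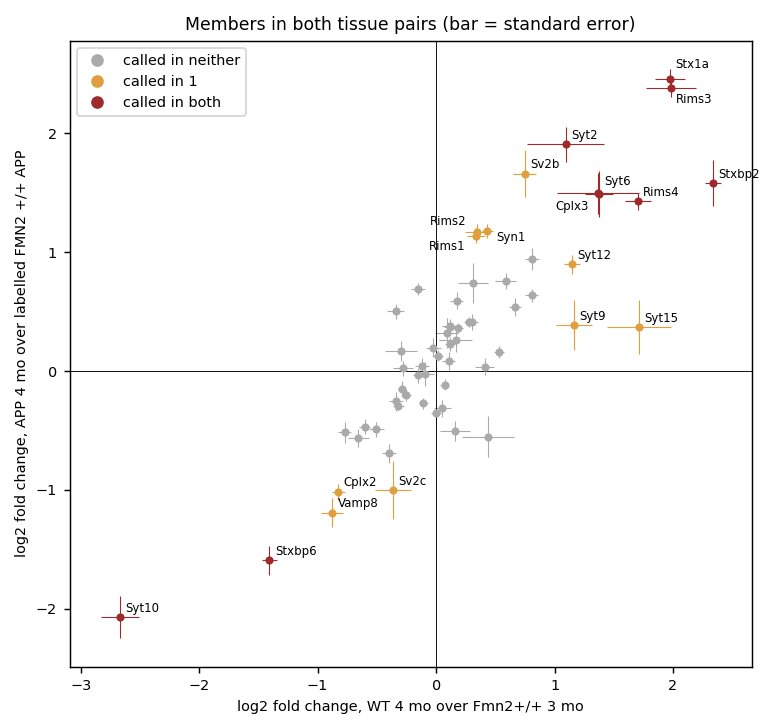
Log2 fold change of the members reported here in the wild-type pair (x axis) and the amyloid pair (y axis), with standard errors as bars and colour showing in how many pairs the member was called. The 9 members called in both lie at the upper right, except Stxbp6 and Syt10 at the lower left.

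The same differences were seen as the share of each form within a family, by RPKM, which does not depend on library scaling; these shares are given without a test. Cplx1 made up 37.6% ± 2.92 (SD, n = 5) of the Cplx1 and Cplx2 total in Fmn2+/+ dentate gyrus at 3 months and 53.1% ± 2.43 (SD, n = 6) in cortex-titled wild type. Across all 6 dentate gyrus groups it ran from 16.8% to 41.6%, and in both cortex-titled groups from 49.7% to 56.1%. For Rims3 the share of the 4 Rims genes was 16.3% ± 4.84 and 33.1% ± 2.13. Syn1 made up 56.5% ± 1.66 of the synapsins against 68% ± 2.62. Within the dentate gyrus the share of Syn1 at 8 months was 42.4% to 45.1% in Fmn2-/- and 47.3% to 54.1% in Fmn2+/+, without overlap. At 3 months it overlapped, at 47.8% to 57.8% and 54.0% to 58.7%. The share of Vamp1 in Vamp1 and Vamp2 also separated at 8 months, at 4.79% to 5.67% in Fmn2-/- and 4.29% to 4.77% in Fmn2+/+. The shares of Cplx1, Sv2b, Syt2, Rims1 and Rims3 in their families overlapped there. No synapsin was called at 8 months.

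**Figure D5:**
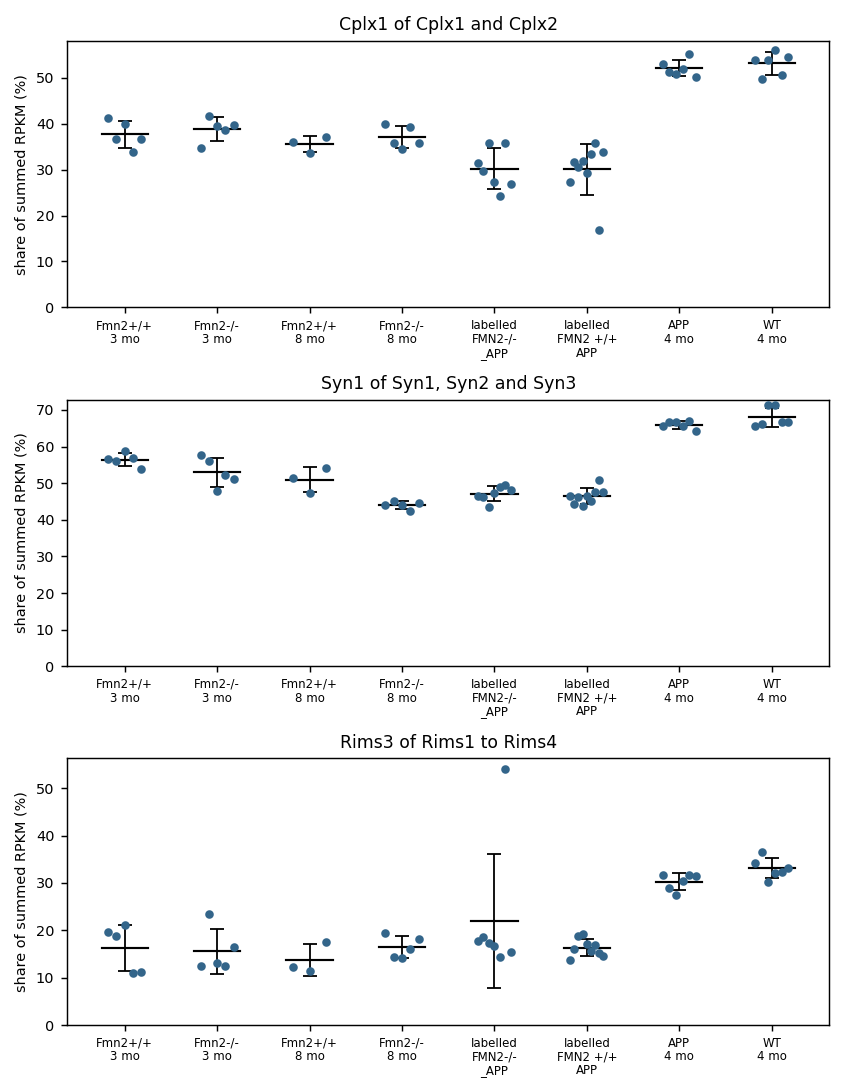
Share of 1 form in the summed RPKM of its family, in percent, for every library of the 8 groups; points are libraries, long lines means and error bars SDs. Both 4-month groups lie above the dentate gyrus groups for Cplx1 and Syn1, and for Rims3 with the exception of the library labelled FMN2-/-_APP replicate 7, at 54.0%.

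Other genes of the release pathway were counted for comparison. Of 23 active zone and priming genes, 14 vesicle endocytosis genes and 16 transmitter loading genes (15 tested), 0 were called at 3 months, at 8 months, in the cross or in the amyloid comparison; the thresholds were those used for the members. In the interaction, Napa and Cltb, which act in SNARE recycling and in clathrin coats, were each called lower. In the wild-type tissue pair 6 of the 23 active zone genes were called, 4 higher and 2 lower, beside 20.2% of all genes. In the amyloid pair 9 of the 23 were called, 6 higher and 3 lower, beside 20.4% of all genes. Of the 15 transmitter loading genes tested, 1 was called higher and 4 lower in the wild-type pair. In the amyloid pair 0 of them were called higher and 3 lower. Endocytosis genes had no call in either pair, with medians of 0.13 and 0.41.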

How the data were processed

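RNA was sequenced from whole dissected tissue. Per the study's methods and the labels, the authors aligned reads with STAR to mm10 and counted them per gene with HTSeq; the strand setting and annotation are not given in the sources used here. The deposited values are raw counts per gene. Both lane runs of replicate 7 in each cross group were summed. Counts were fitted across all genes for each comparison with edgeR 4.0.16 (quasi-likelihood test, TMM, filterByExpr, Benjamini-Hochberg adjustment) in R 4.3.3; standard errors are the fold change divided by the square root of F. Library values are CPM on 1 TMM scale over 46 libraries, divided by exon length (GENCODE M21) for RPKM. Fits were tested on simulated data. Alternatives covered DESeq2 1.42.0, scaling, filtering, a length and GC spline (5 degrees of freedom each), lane, depth and left-out replicates. The members and lists were chosen with earlier results of these data known. Genes were named by rule: called members (up to 10, otherwise the 5 highest and 5 lowest), the 3 smallest p where none was called, the 10 highest levels and the leading gene of each role; Rims2, Cplx3, Napa, Cltb and the cell markers Aqp4, C1ql2 and Gfap, and members named only in a pair or share where the rule did not pick them, were chosen after their values were seen. Some members that were counted and tested are not reported here by name. The labels do not state that replicates came from separate mice, so p-values measure the spread between libraries.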

Additional observations from a re-analysis of the deposited data

Results flagged for a closer look

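The interaction test of age and genotype set apart Stx18 (-0.357 on the log2 scale), Syt14 (0.51) and Syn3 (0.759), as described above.

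Single libraries lay far from the rest of their group by Dixon's criterion for 10 of 128 combinations of gene and group examined, where chance at the 95% level gives about 6.4. In the library labelled FMN2 +/+ APP replicate 8, Cplx1 was 232 CPM (412 to 504 in the others), Snap47 320 (373 to 427), Stxbp6 552 (276 to 369) and Syt10 13.9 (6.34 to 8.42); its 6 interneuron markers summed to 393 CPM, the lowest of all groups. In the library labelled FMN2-/-_APP replicate 7, Cplx2 was 1280 CPM (2080 to 2520). In APP replicate 5, Cplx1 was 685 CPM (519 to 578), Rims3 267 (250 to 256) and Vamp8 8.88 (6.55 to 7.25). Syt1 was 1410 CPM in the library labelled FMN2 +/+ APP replicate 5 (1100 to 1250), and Vamp2 1350 CPM in wild-type 4-month replicate 6 (1280 to 1300).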

How the results depend on the processing

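Of 114 recomputed counts of called members, 84 stayed within 1.5 times the reported count, among them all of those at 3 months and in the cross (0 each), in the wild-type tissue pair (11 to 12) and in the amyloid tissue pair (14 to 18). At 8 months the count was 4 with DESeq2, 3 without the low-count filter and 0 with the length and GC correction, lane as a covariate, Fmn2-/- replicates 2 and 3 summed, or thinned reads; leaving out 1 replicate gave 0 to 16. For the interaction it was 5 with DESeq2, 1 without the filter and 0 with the length and GC correction, lane or thinned reads; leaving out 1 replicate gave 0 to 9. For APP against wild type it was 1 with the length and GC correction, alone or with the replicate block. The cause of these changes was not tested, and shares of all genes are given above for only some of these counts. Of 508 recomputed fold changes of named members, 439 kept their side of the threshold, 69 lost the call and 0 changed sign. Replicate numbers did not pair the libraries: deviations of same-numbered libraries correlated at -0.288 to 0.272. With a replicate block the count was 0 at 8 months and 0 for the interaction, also with the length and GC correction. Fits without libraries high in choroid plexus or oligodendrocyte markers, or standing apart in single members, were added after seeing the data. The 8-month groups had the lowest median depth, and its part in these changes was not tested.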
